A study of Mus musculus with 30 samples.

Results

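The genes that write, copy and remove cytosine methylation were followed through 24 poly(A) RNA-seq libraries of mouse neural progenitor cells (NPCs). They were the rows of the count table with the symbols Dnmt1, Dnmt3a, Dnmt3b, Dnmt3l, Uhrf1, Tet1, Tet2, Tet3 and Tdg, and all 9 were found among the 25400 genes counted and among the 16582 genes tested. The study asked how isoforms and variants of MBD2 and MBD3, subunits of the NuRD chromatin remodelling and deacetylase complex, act when embryonic stem cells (ESCs) commit to neurons.

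The 8 lines had 3 libraries each and all came from HA36CB1, a 129 x C57BL/6 ESC line differentiated in vitro. They were wild type (WT), Mbd3-KO, and Mbd3-KO with one of 6 constructs: MBD3a, MBD3 lacking its methyl-CpG binding domain (MBD3delMBD), MBD2a, MBD2a lacking its glycine-arginine repeat (MBD2adelGR), MBD2a with a point mutation in the methyl-CpG binding domain (MBD2aR181C), or MBD2t. The knockout was made with CRISPR at exons 2 and 3 of Mbd3. Constructs were driven by the CAG promoter, carried a biotin tag, and were placed by recombinase-mediated cassette exchange in Mbd3-KO ESCs that also carried the biotin ligase BirA. Libraries came from individually derived clones except for MBD2t, whose 3 libraries repeated a single clone, so their scatter does not include variation from clone to clone. The mutant is R181C in the labels and R64C in the column names, and it was the only point mutant among the lines. Libraries are named here by line and by the number (s01 to s24) in the column names.

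Cytosine methylation is set by the de novo methyltransferases DNMT3A and DNMT3B, helped by the inactive relative DNMT3L, and is copied at replication by DNMT1, which UHRF1 brings to hemimethylated CpG. TET enzymes oxidise 5-methylcytosine, and thymine DNA glycosylase (TDG) cuts out the further oxidised bases, so that repair restores an unmethylated cytosine. Dnmt3b and Dnmt3l are known for high expression in pluripotent and early embryonic cells, whereas Dnmt3a and Tet3 are the de novo and oxidation genes best known from the neural lineage.

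Library totals lay between 27993858 and 49392806 reads, and 3 reads corresponded to 0.0607 to 0.115 CPM, reads scaled to a common library size. The scaling was TMM, a normalization across libraries. Counts of Mbd3 cover the whole gene, so they cannot show whether reads lie in the deleted part, and stood at 59.0 ± 21.6 CPM in Mbd3-KO against 154 ± 4.06 in WT (SD, n = 3), a log2 fold change of -1.38 (adjusted p = 0.000283, edgeR). The NPC label fitted the lines unequally. The summed level of 13 neural genes was 1952 to 3781 CPM in WT and 169 to 304 CPM in Mbd3-KO, while that of 14 pluripotency genes was 88.6 to 346 CPM in WT and 640 to 1739 CPM in Mbd3-KO. The sums in MBD2a were 129 to 338 CPM for neural and 957 to 1316 CPM for pluripotency genes, and in MBD2t 234 to 260 and 1067 to 1269 CPM. None of these markers was at 0 in every library of a line. Trophoblast markers summed to 159 to 337 CPM in WT and 2148 to 2848 CPM in Mbd3-KO, with 12 of 13 called higher, against 19.6% of all genes. Their sums were 596 to 2507 CPM in MBD2a and 1703 to 1932 CPM in MBD2t. Primitive endoderm markers summed to 745 to 1010 CPM in WT and 1850 to 2543 CPM in Mbd3-KO. Of these 15 genes only Amn, Lamb1 and Foxa2 were called, all higher, against 19.6% of all genes. Much of the sum lay in Col4a1 and Col4a2, with means of 896 and 683 CPM in Mbd3-KO. Neither passed the test against WT (adjusted p = 0.0991 and 0.0656, edgeR). Markers of replicating cells summed to 3517 to 4443 CPM in WT and 3194 to 4018 CPM in Mbd3-KO, and 0 of 19 were called by edgeR (6 passed the adjusted p without the fold limit and 7 had an unadjusted p under 0.05). Over all genes, 33.8% were called, 60.2% passed the adjusted p and 64.1% the unadjusted p. In bulk RNA, fewer cells of a type and less RNA per cell cannot be told apart.

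Several libraries stood apart from the others of their line, s03 and s18 by their long genes. For the 988 genes with at least 9000 bases of exon and a mean log2 CPM of at least 1, the median log2 level was 0.67 below the mean of the other WT libraries in s03 and 0.53 below the other MBD2adelGR libraries in s18, against -0.25 to 0.35 in the remaining libraries. Library s18 also had 22764 CPM of primitive endoderm markers, against 1262 to 1661 in the other MBD2adelGR libraries. Among the MBD2a libraries, s15 had 2507 CPM of trophoblast markers, against 605 and 596 in the others. The trophoblast genes of s15 were uneven. Krt7 had 385 CPM, against 359 to 481 CPM in Mbd3-KO, but Prl2c2 had 3.9 CPM, against 63.5 to 74.9 CPM. Primitive endoderm markers summed to 4048, 913 and 5125 CPM in s13, s14 and s15. Library s04 of Mbd3-KO differed from s05 and s06 by a chi-square per gene of 67.5 and 75.7, against 10 between those, and s15 from the other MBD2a libraries by 98.7 and 80, against 49.9. Results that rest on s04 or s15 are given below without them, and the part of these markers in the results was not tested. Tet1, Tet2, Tet3 and Dnmt3a have exon lengths of 14710, 9203, 11086 and 16642 bases, and Tet3, the one of them that passed a test against WT, is also given without s03 (without both libraries the Mbd3-KO difference in Tet3 was -1.23 on the log2 scale, adjusted p = 0.00179, edgeR).

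Between Mbd3-KO and WT NPCs the de novo pair Dnmt3b and Dnmt3l rose, Dnmt1 rose slightly, Tdg fell, and Tet3 fell by an amount that depended on single libraries. Dnmt3b was 2.63-fold and Dnmt3l 26.5-fold higher, and Tdg was 1.83-fold lower. Of the 9 genes, 2 were called (adjusted p under 0.05 and a log2 fold change beyond 1 in either direction), where 33.8% of all tested genes were called. Without the fold limit 5 of 9 passed, against 60.2% of all genes, and for 4 of 9 the libraries of the lines did not overlap, against 62.2%. With only 9 genes these shares are not read as a result about the set, in a comparison in which most genes passed the test. The median log2 fold change of the 9 genes was -0.14, against -0.03 over all tested genes.

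Dnmt3a lies at chr12:3806007-3914443 on the plus strand in mm9 and encodes the de novo methyltransferase of later embryonic and neural cells. It had 319, 279 and 182 CPM in WT and 160, 227 and 217 CPM in Mbd3-KO. The lines overlapped, and the log2 difference of -0.37 (SE 0.218) had an adjusted p of 0.148 with edgeR. Over all 24 libraries its level ranged from 155 to 335 CPM, 2.16-fold. No line differed from WT at the adjusted p, and 1 of the construct lines differed from Mbd3-KO, MBD3delMBD with 286 to 335 CPM (log2 0.62, SE 0.219, adjusted p = 0.0201). That difference was lost without s04, s11 or s12 (adjusted p from 0.0504 to 0.0986).

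Dnmt3b, the de novo methyltransferase of the early embryo, lies at chr2:153475186-153513466 on the plus strand. Its level was 17.4, 22.3 and 26.3 CPM in WT and 68.6, 53.6 and 51.3 CPM in Mbd3-KO. All Mbd3-KO libraries were above all WT libraries (log2 1.39, SE 0.254, adjusted p = 0.000125, edgeR). The MBD2a libraries had 40.3, 45.3 and 64.8 CPM and the MBD2t libraries 65.7, 64.6 and 63.7 CPM. Both lines were again above WT without overlap, by 1.19 (SE 0.253, adjusted p = 0.000685) and 1.56 (SE 0.255, adjusted p = 4.36e-05) on the log2 scale. The lines with the other constructs all overlapped WT, with 18.2, 25.9 and 24.7 CPM in MBD3a, 24.8, 18 and 16.4 CPM in MBD3delMBD, 21.3, 28.8 and 32.6 CPM in MBD2adelGR, and 15.9, 34.4 and 21.7 CPM in MBD2aR181C. None of these 4 lines passed the test against WT (adjusted p from 0.435 to 1), and each was lower than Mbd3-KO, by 1.07 to 1.56 on the log2 scale (adjusted p from 3.89e-05 to 0.00191).

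Dnmt3l, the catalytically inactive partner that stimulates DNMT3A and DNMT3B, lies at chr10:77504692-77526367 on the plus strand. It varied most of the 9 genes, from 0.219 CPM (9 reads) to 120 CPM (4192 reads). WT libraries had 0.671, 1.18 and 4.26 CPM, and Mbd3-KO libraries 120, 28.5 and 17.3 CPM. The lines did not overlap, although they spread 6.35-fold within WT and 6.93-fold within Mbd3-KO, and the log2 difference was 4.73 (SE 0.987, adjusted p = 0.000448, edgeR). It was 3.46 without library s04 and 5.89 without s03, and the adjusted p stayed at or below 0.00393 when any 1 library was left out. MBD2a had 16.9, 30.8 and 83.2 CPM and MBD2t 36.6, 33.7 and 34.4 CPM, again above every WT library (log2 4.39, adjusted p = 0.000988, and 4.07, adjusted p = 0.0014). Without s03 these became 5.55 and 5.23, and without s15 the MBD2a value was 3.53. Dnmt3b in MBD2a was then at 0.97, short of the fold limit. The remaining lines were low but uneven, with 0.946, 3.35 and 1.04 CPM in MBD3a, 0.994, 0.489 and 0.219 CPM in MBD3delMBD, 1.38, 3.42 and 12.4 CPM in MBD2adelGR, and 1.47, 12.2 and 2.2 CPM in MBD2aR181C. In MBD2adelGR and MBD2aR181C a single library, s18 and s20, lay above the others. The same 2 libraries had the highest pluripotency marker sums of their lines, 875 against 211 and 476 CPM, and 666 against 98.7 and 276 CPM, as s03 had in WT (346 against 88.6 and 141 CPM). Single genes of that list were uneven in s17 and s18. Pou5f1 had 39.3 and 50.2 CPM, Zfp42 24.1 and 39.6, and Nanog 27.6 and 29. Fgf4 had 1.67 and 1.38 CPM, and Tfcp2l1 28.1 and 19.3. Library s18 was also the one with 22764 CPM of primitive endoderm markers. In Mbd3-KO the library with the most Dnmt3l, s04, also had the highest pluripotency sum. The part of these markers in the Dnmt3l level was not tested. An exon of Aire overlaps Dnmt3l on the opposite strand, and since the strand setting of the counting is not given in the sources used here, reads of the 2 genes may not be fully separated.

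**Figure D1:**
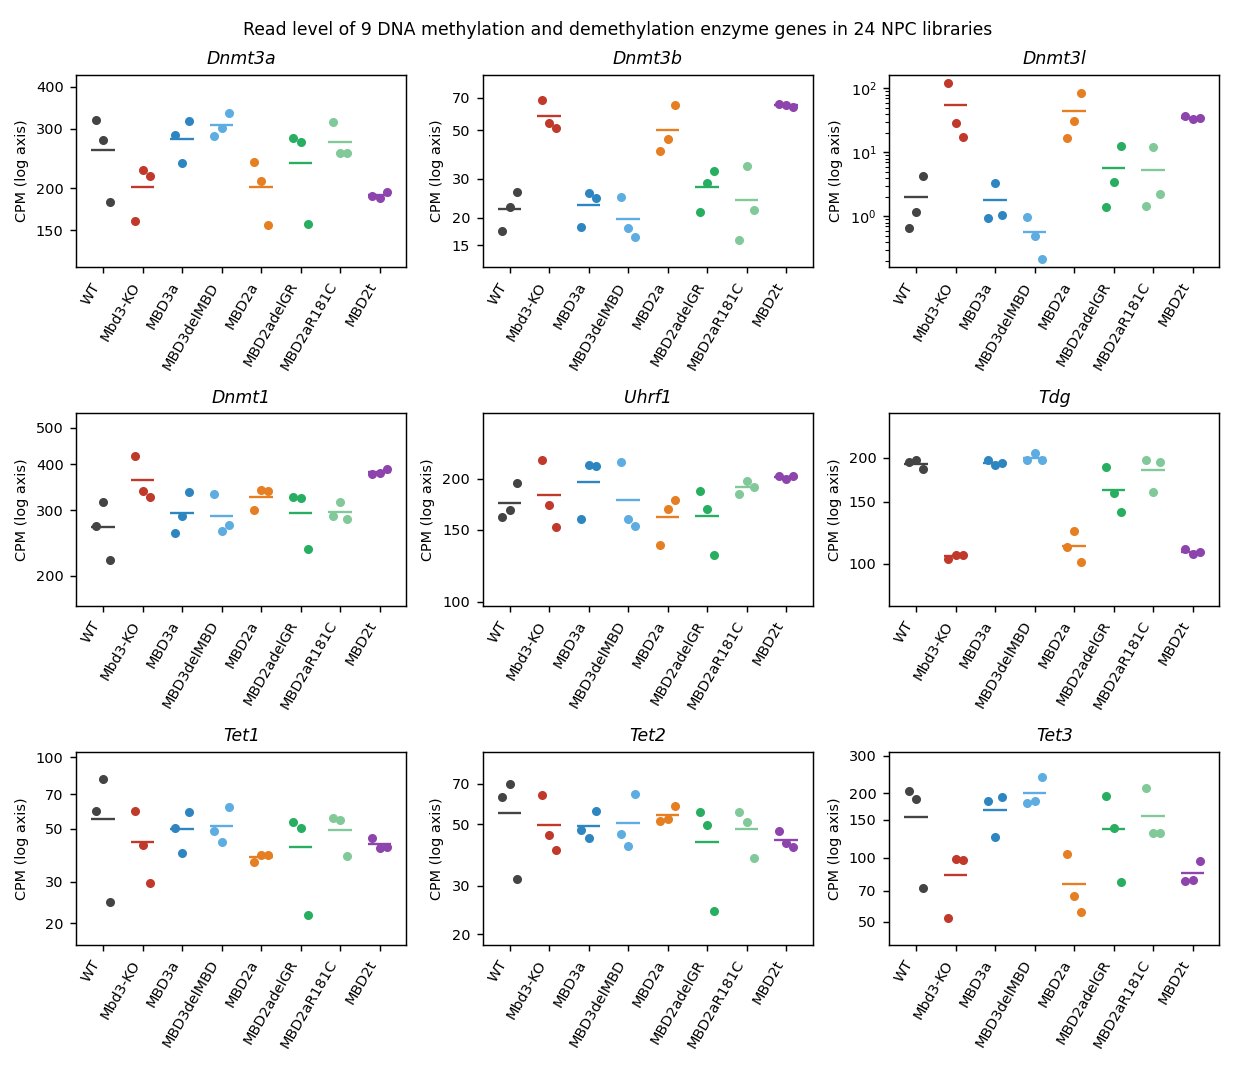
Level of each gene in CPM (log axis) for the 3 libraries of each line, as points in column order with the mean as a bar. The 9 libraries of Mbd3-KO, MBD2a and MBD2t lie apart from the other 15 for Dnmt3b (40.3 to 68.6 against 15.9 to 34.4 CPM), Dnmt3l (16.9 to 120 against 0.219 to 12.4 CPM) and Tdg (101 to 124 against 140 to 206 CPM).

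The plot of levels by line shows the same division of the lines for 3 genes. Across the 9 libraries of Mbd3-KO, MBD2a and MBD2t and the 15 of the other lines, Dnmt3b, Dnmt3l and Tdg had ranges that did not overlap, and the other 6 genes overlapped. This was 3 of 9, where 20.9% of all tested genes had ranges apart in this division, which was drawn with the results known and is a description. The promoters of these 3 genes are shown because their levels divide the lines in this way, and because MBD2 binds methylated CpG. The windows are the 250 bases before the transcription start in RefSeq on GRCm38.p6, a later build than that of the counts, all on the plus strand. CG dinucleotides, searched as CG, which reads the same on both strands, are in capitals. The Dnmt3l window is the first of 3 annotated starts.

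Dnmt3l, chr10:78042037-78042286: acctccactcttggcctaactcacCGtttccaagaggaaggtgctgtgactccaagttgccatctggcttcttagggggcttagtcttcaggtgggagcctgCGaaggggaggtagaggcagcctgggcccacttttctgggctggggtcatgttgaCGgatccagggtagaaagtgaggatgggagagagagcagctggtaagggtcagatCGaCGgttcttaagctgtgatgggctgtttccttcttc
Dnmt3b, chr2:153649199-153649448: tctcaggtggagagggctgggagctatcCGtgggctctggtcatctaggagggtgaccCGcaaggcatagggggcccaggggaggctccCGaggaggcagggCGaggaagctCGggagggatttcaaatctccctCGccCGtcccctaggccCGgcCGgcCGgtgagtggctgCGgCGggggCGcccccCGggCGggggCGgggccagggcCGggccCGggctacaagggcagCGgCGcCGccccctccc
Tdg, chr10:82629588-82629837: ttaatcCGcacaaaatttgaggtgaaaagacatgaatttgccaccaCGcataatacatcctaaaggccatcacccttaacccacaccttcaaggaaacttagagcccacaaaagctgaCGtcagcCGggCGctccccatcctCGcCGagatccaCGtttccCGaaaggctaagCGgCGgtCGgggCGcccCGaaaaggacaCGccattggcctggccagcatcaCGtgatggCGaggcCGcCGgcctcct

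The Dnmt3l window holds 5 CG, and the windows of its other annotated starts hold 4 and 3. The Dnmt3b window holds 21 and the Tdg window 19. The median over 32851 windows of RefSeq starts was 6, and 16.3% of windows held at least as many CG as that of Dnmt3b, 19.7% as that of Tdg and 55.6% as the first of Dnmt3l. Methylation of these windows was not measured in the RNA-seq data, and the counts say nothing on which start was used.

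Per base of exon, the balance of the de novo genes differed between lines. The ratio of Dnmt3b to Dnmt3a reads per exon base was 0.303 ± 0.152 in WT and 0.981 ± 0.362 in Mbd3-KO (SD, n = 3). It was 0.87 ± 0.432 in MBD2a and 1.11 ± 0.0397 in MBD2t, and between 0.212 and 0.423 on average in the other 4 lines. Exon bases pool all annotated exons of a gene, 16642 for Dnmt3a and 5106 for Dnmt3b, and need not match the transcripts present. The same limit holds for levels per kilobase below. In plain reads the ratio was 0.0544 to 0.145 in WT and 0.236 to 0.429 in Mbd3-KO. It was 0.168 to 0.418 in MBD2a and 0.326 to 0.348 in MBD2t. The ratio of Dnmt3l to Dnmt3b was 0.066, 0.0907 and 0.277 in the WT libraries, 2.99, 0.908 and 0.576 in Mbd3-KO, 0.715, 1.16 and 2.19 in MBD2a, and 0.921 ± 0.0294 in MBD2t. A single library, s03, s04 or s15, was well above the others in WT, Mbd3-KO and MBD2a. In the libraries of the other 4 lines it ran from 0.0229 to 0.647. These ratios follow from the levels above and were not tested.

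**Figure D2:**
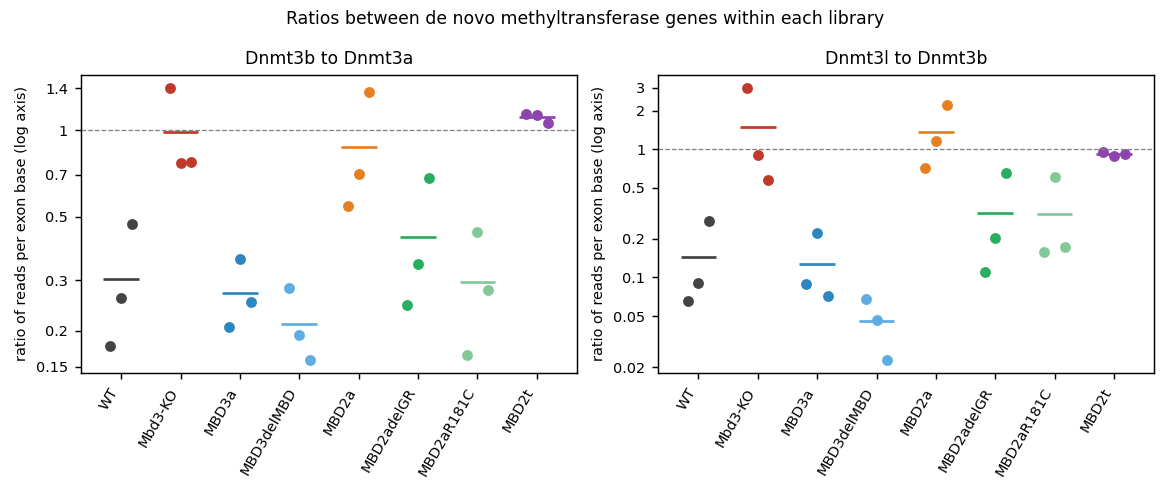
Ratio of reads per exon base between de novo methyltransferase genes within each library (log axis), by line, with the mean of 3 libraries as a bar and a dashed line at a ratio of 1. Exon bases pool all annotated exons of a gene and need not match the transcripts present. On this scale the ratio of Dnmt3b to Dnmt3a is near 1 in Mbd3-KO (mean 0.981), MBD2a (0.87) and MBD2t (1.11) and lower in the other lines (means 0.212 to 0.423).

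Dnmt1, the maintenance methyltransferase, lies at chr9:20711650-20757317 on the minus strand and had the highest level per kilobase of exon of the 9 genes, 59.8 CPM per kilobase on average over 24 libraries. It had 273, 316 and 221 CPM in WT and 421, 338 and 327 CPM in Mbd3-KO. The Mbd3-KO libraries were all higher, by a small margin (log2 0.42, SE 0.144, adjusted p = 0.0168, edgeR), and this was lost without s03 (0.29, adjusted p = 0.0979) or s04 (0.30, adjusted p = 0.107). MBD2t, with 376, 379 and 387 CPM, was also higher than WT (log2 0.49, SE 0.144, adjusted p = 0.00628). Its libraries repeat a single clone, so this p-value does not cover variation between MBD2t clones. MBD2a had 301, 340 and 338 CPM, overlapped WT and did not pass (log2 0.27, SE 0.144, adjusted p = 0.115). The other lines had 236 to 336 CPM.

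Uhrf1, which reads hemimethylated CpG and recruits DNMT1, lies at chr17:56442744-56462909 on the plus strand. It had 161, 168 and 195 CPM in WT and 222, 172 and 152 CPM in Mbd3-KO. The lines overlapped (log2 0.06, SE 0.164, adjusted p = 0.781). Uhrf1 had the narrowest range of the 9 genes over the 24 libraries, from 130 to 222 CPM, and passed the adjusted p in 0 of the 16 comparisons with edgeR (0 also at an unadjusted p under 0.05).

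The 3 TET genes differed in level and in behaviour. Per kilobase of exon, averaged over 24 libraries, Tet3 had 11.9 CPM, Tet2 5.34 CPM and Tet1 3.16 CPM. Tet1, at chr10:62267318-62361866 on the minus strand, had 59.6, 80.7 and 24.6 CPM in WT and 59.4, 42.6 and 29.5 CPM in Mbd3-KO (log2 -0.33, SE 0.345, adjusted p = 0.429, edgeR). Tet2, at chr3:133126643-133207354 on the minus strand, had 62.8, 69.9 and 31.6 CPM in WT and 63.5, 45.7 and 40.3 CPM in Mbd3-KO (log2 -0.14, SE 0.279, adjusted p = 0.691). In both genes the lowest WT library was s03 and the lines overlapped. Neither gene passed the adjusted p in any of the 16 comparisons with edgeR (0 of 16 also at an unadjusted p under 0.05).

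Tet3, at chr6:83312367-83391672 on the minus strand, encodes the TET enzyme also known from the zygote. Its levels were 205, 187 and 71.9 CPM in WT and 51.9, 98.5 and 97.8 CPM in Mbd3-KO. The WT library s03 lay within the Mbd3-KO range, and the log2 difference was -0.90 (SE 0.368, adjusted p = 0.0407, edgeR). Without s03 it was -1.25 (adjusted p = 0.00436), and without any 1 of the 5 other libraries of these lines the adjusted p was over 0.05, from 0.0503 to 0.184. MBD2a had 104, 66.4 and 55.8 CPM and MBD2t 77.9, 78.5 and 96.4 CPM. Both passed against WT (log2 -1.04, adjusted p = 0.0225, and -0.88, adjusted p = 0.0465), with s03 inside the range of MBD2a and below all 3 MBD2t libraries. Without s03 the values were -1.38 (adjusted p = 0.00242) and -1.22 (adjusted p = 0.00504), while the MBD2a difference was lost without s01, s02, s14 or s15 and the MBD2t difference without any 1 library other than s03. The levels in the other lines were 183, 125 and 192 CPM in MBD3a, 180, 184 and 239 CPM in MBD3delMBD, 193, 137 and 77 CPM in MBD2adelGR, and 211, 130 and 130 CPM in MBD2aR181C. Against Mbd3-KO, Tet3 was higher without overlap in MBD3a (log2 1.01, adjusted p = 0.025), MBD3delMBD (1.28, adjusted p = 0.00559) and MBD2aR181C (0.93, adjusted p = 0.0384). The MBD3delMBD difference kept an adjusted p of at most 0.0351 without any 1 library, that of MBD3a was lost without s04 (0.115), s07 (0.0757) or s09 (0.0758), and that of MBD2aR181C without s04, s05, s06 or s19 (0.0536 to 0.216). MBD2adelGR, whose lowest library was s18, did not pass (0.71, adjusted p = 0.119).

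**Figure D3:**
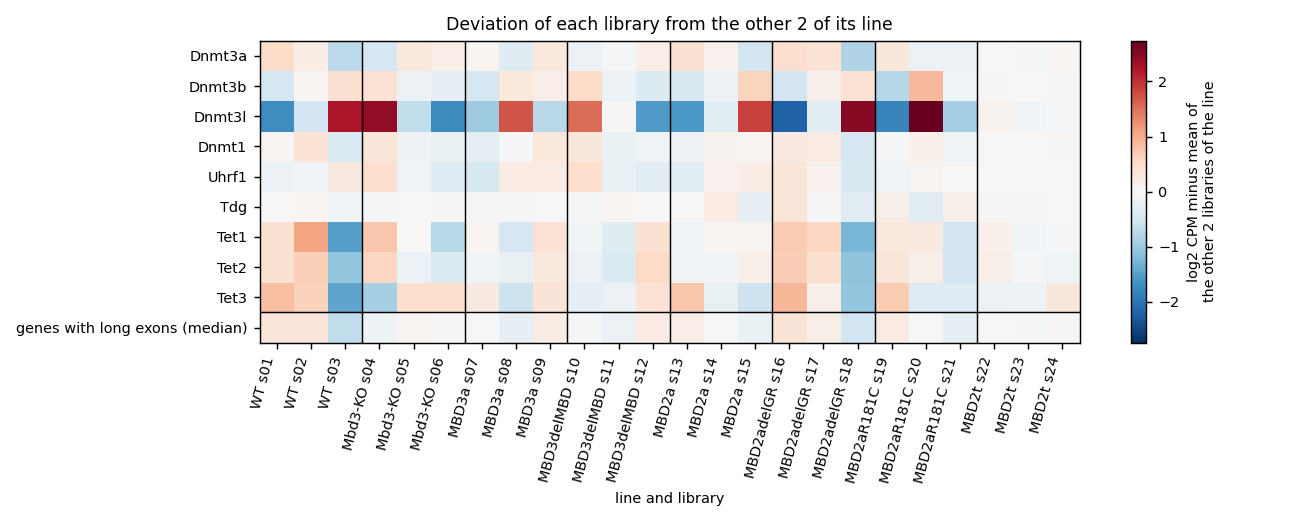
Log2 CPM of each gene in each library minus the mean of the other 2 libraries of its line, with the median over 988 genes with long exons in the bottom row. In s03 and s18 the TET genes are low (-1.07 to -1.50, and -1.08 to -1.26) together with the long-exon genes (-0.67 and -0.53).

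The deviations of each library show how the 4 genes with long exons moved in s03 and s18. In s03, Tet1, Tet2, Tet3 and Dnmt3a were at -1.50, -1.07, -1.45 and -0.71 from the other WT libraries on the log2 scale. In s18 they were at -1.26, -1.10, -1.08 and -0.83 from the other MBD2adelGR libraries. Both libraries also had more reads of pluripotency markers than the others of their line, and s18 had the high primitive endoderm sum given above. Neither what is shared by the long genes nor the makeup of the cells was tested as a source of these deviations.

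Tdg, the glycosylase that removes oxidised methylcytosine, lies at chr10:82092573-82113544 on the plus strand. Its libraries were close within lines, with 195, 197 and 186 CPM in WT and 103, 106 and 106 CPM in Mbd3-KO. The log2 difference was -0.88 (SE 0.0986, adjusted p = 1e-06, edgeR), short of the fold limit but without overlap, and it ranged from -0.90 to -0.86 when 1 library was left out. MBD2a had 112, 124 and 101 CPM and MBD2t 110, 107 and 108 CPM, both below every WT library (log2 -0.77, adjusted p = 6.32e-06, and -0.83, adjusted p = 1.8e-06). MBD3a had 197, 191 and 193 CPM, MBD3delMBD 197, 206 and 198 CPM, MBD2adelGR 188, 159 and 140 CPM, and MBD2aR181C 198, 160 and 195 CPM. Against Mbd3-KO the log2 differences of these 4 lines were 0.88, 0.93, 0.63 and 0.81, with adjusted p-values from 4.16e-07 to 4.62e-05. MBD2adelGR had the lowest of these levels, and its difference from WT was -0.24 (SE 0.0978, unadjusted p = 0.0218, adjusted p = 0.119).

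Reads of Tdg may be shared with a near-identical copy, Tdg-ps, at chr15:82346705-82349711 on the plus strand in mm9. The aligned coding sequences were identical at 1181 of 1195 bases (98.8%), and 17.4% of all stretches of 150 bases, the read length, in the Tdg transcript occur unchanged in that of Tdg-ps. A stretch of 60 coding bases, positions 989 to 1048 in Tdg and 917 to 976 in Tdg-ps, shows how few bases separate them, with 3 mismatches in capitals.

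Tdg: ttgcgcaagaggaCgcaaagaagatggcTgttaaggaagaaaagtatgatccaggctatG
Tdg-ps: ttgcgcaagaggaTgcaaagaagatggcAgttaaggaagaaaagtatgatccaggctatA

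The counts of Tdg-ps were 0.403 to 0.479 of those of Tdg in every library, and Tdg-ps was lower in Mbd3-KO than in WT by a like amount (81.4 ± 2.56 CPM in WT, 45.7 ± 2.02 CPM in Mbd3-KO, log2 -0.83, adjusted p = 6.53e-07). How many reads come from each copy cannot be told from the counts. Exons of Glt8d2 also overlap Tdg on the opposite strand, and those of Gm10485 overlap Dnmt3a, with the same limit as for Dnmt3l and Aire.

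Across the comparisons with WT, the lines fell into those with member genes past the test and those with none. MBD2a had 3 of 9 called (Dnmt3b, Dnmt3l and Tet3), against 30.6% of all genes, and 4 of 9 past the adjusted p alone, against 55.5%. MBD2t had 2 of 9 called (Dnmt3b and Dnmt3l), against 33.4%, and 5 of 9 past the adjusted p, against 59.8%. MBD3a, MBD3delMBD, MBD2adelGR and MBD2aR181C had 0 of 9 called, with edgeR and with DESeq2, and 0 past the adjusted p in edgeR. In the same order, 0%, 0.0181%, 5.16% and 0.0181% of all genes were called, and 0%, 0.0181%, 8.55% and 0.0181% passed the adjusted p. At an unadjusted p under 0.05 only Tdg in MBD2adelGR passed, where 1.77%, 7.16%, 26.6% and 3.95% of all genes did. These comparisons do not show that the genes were at WT level. All 7 comparisons share the WT libraries, s03 included. The MBD2t libraries repeat a single clone, so p-values with MBD2t, here and in the other sections, do not cover variation between its clones.

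**Figure D4:**
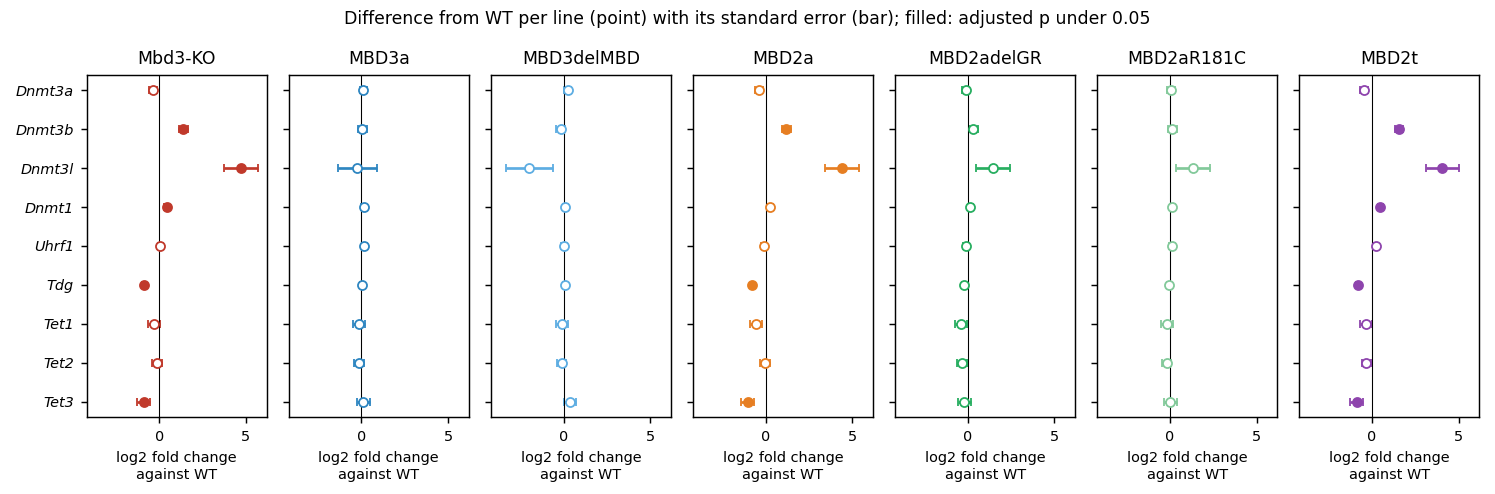
Log2 fold change of each gene against WT (points) with its standard error (bars) in each of the 7 other lines, filled where the edgeR adjusted p was under 0.05. Filled points are found in Mbd3-KO (5), MBD2a (4) and MBD2t (5), with Dnmt3l the farthest from 0 at 4.73, 4.39 and 4.07.

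Comparisons with Mbd3-KO ask in which genes each construct line differed from the knockout, and they share the Mbd3-KO libraries. Marker sums differed as well. Neural sums were 169 to 304 CPM in Mbd3-KO, 2494 to 3238 CPM in MBD3a and 3113 to 4162 CPM in MBD3delMBD. They were 1107 to 2693 CPM in MBD2adelGR and 2024 to 3805 CPM in MBD2aR181C, with MBD2a and MBD2t as given above. The part of cell makeup in the gene differences was not tested. MBD3a differed in 3 of 9 genes, Dnmt3b, Dnmt3l and Tet3, where 32.4% of all genes were called. Dnmt3l was lower by 4.95 on the log2 scale (SE 1.03, adjusted p = 0.00046). MBD3delMBD differed in the same 3 genes at a background of 35.9%, with Dnmt3l lower by 6.72 (SE 1.19, adjusted p = 8.1e-05). Without s04 these Dnmt3l differences were -3.69 and -5.45, and without s08 that of MBD3a was -5.80, each still called. MBD2adelGR differed in Dnmt3b and Dnmt3l (25.2% of all genes called). Its Dnmt3l value of -3.25 (adjusted p = 0.00589) was -4.51 (adjusted p = 0.00205) without s18 and became -1.99 (adjusted p = 0.0693) without s04, the Mbd3-KO library with the most Dnmt3l, and Dnmt3b then stayed past the adjusted p but not the fold limit (-0.93, adjusted p = 0.012), as it did without s16 (-0.96, adjusted p = 0.0106). MBD2aR181C differed in Dnmt3b and Dnmt3l (31.1%), Dnmt3l by -3.41 (adjusted p = 0.00344), which was -2.14 (adjusted p = 0.0428) without s04 and -4.95 (adjusted p = 8e-04) without s20. MBD2a and MBD2t had 0 of 9 called and 0 past the adjusted p in edgeR, 0 at an unadjusted p under 0.05, and 0 called in DESeq2, where 5.25% and 0.0241% of all genes were called, 8.77% and 0.0302% passed the adjusted p, and 22.6% and 3.44% the unadjusted p. The Dnmt3l difference from Mbd3-KO was -0.33 (SE 0.793) in MBD2a and -0.66 (SE 0.795) in MBD2t, a precision that leaves room for differences of over 1 on the log2 scale.

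The 3 comparisons within the MBD2 constructs set MBD2a beside its variant without the glycine-arginine repeat, its methyl-CpG binding mutant and MBD2t. The lines also differed in Mbd2 reads, which the construct and the endogenous gene may share. Mbd2 had 80.2 ± 11.4 CPM in MBD2a, against 477 ± 211 CPM in MBD2adelGR, 278 ± 41.1 CPM in MBD2aR181C and 344 ± 10.9 CPM in MBD2t (SD, n = 3). It had 66.8 ± 3.56 CPM in Mbd3-KO, and MBD2a did not differ from it past the threshold (log2 0.26, SE 0.21, adjusted p = 0.508, edgeR). By Western blot of ESC lines, the paper reports like MBD2 protein levels for the MBD2a and MBD2adelGR constructs. That is protein at an earlier stage, and construct protein in the NPCs was not measured here. A difference in construct RNA and one in construct sequence cannot be told apart in these comparisons. MBD2a was higher than MBD2aR181C in Dnmt3b (log2 1.06, SE 0.252, adjusted p = 0.00194) and Dnmt3l (3.07, SE 0.891, adjusted p = 0.00789) and lower in Tet3 (-1.06, SE 0.369, adjusted p = 0.0223), 3 of 9 genes against 27.3% of all genes. Tdg was lower by 0.71 on the log2 scale (adjusted p = 1.78e-05). Without s15 all 3 calls were lost, with Dnmt3b at 0.84 (adjusted p = 0.0154), Dnmt3l at 2.20 (adjusted p = 0.0587) and Tet3 at -0.88 (adjusted p = 0.106), and without s19 only Dnmt3l was called. Tet3 was also lost without s14 (adjusted p = 0.0811), and Dnmt3b was at 1.00, not past the fold limit, without s21. Compared with MBD2adelGR, 1 of 9 genes was called, Dnmt3l (2.92, SE 0.887, adjusted p = 0.0159), against 18.6% of all genes. This call was lost without s15 (adjusted p = 0.103), s16 (0.0681) or s17 (0.0552). Dnmt3b (0.86, SE 0.251, adjusted p = 0.0124) and Tdg (-0.53, SE 0.0982, adjusted p = 0.000544) passed the adjusted p without reaching the fold limit, and Dnmt3b was lost without s15 (adjusted p = 0.0782) or s16 (0.0547). Without s18 or without s13 the number called was 3. MBD2a and MBD2t differed in 0 of 9 genes in edgeR, 0 at an unadjusted p under 0.05 and 0 in DESeq2, where 4% of all genes were called, 6.18% passed the adjusted p and 20.1% the unadjusted p.

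Other genes of the same pathways were read from lists by role. Of 8 partners of maintenance methylation, 6 passed the adjusted p between Mbd3-KO and WT, 2 higher and 4 lower, and 1 was called, Cdca7l, which belongs to the family of the HELLS partner CDCA7 (55.4 ± 8.63 CPM in WT, 26.9 ± 3.26 CPM in Mbd3-KO, log2 -1.04, adjusted p = 0.000243). Of 14 genes of the methyl donor cycle, 2 were called and both were higher. These were Bhmt, which remethylates homocysteine (0.292 ± 0.335 CPM in WT, 5.64 ± 2.54 CPM in Mbd3-KO, log2 4.20, adjusted p = 6.27e-05), and Gnmt, which consumes S-adenosylmethionine (log2 1.63, adjusted p = 0.00305). Of 20 genes of DNMT3 recruitment and heterochromatin, 1 was called, Morc1, a germline silencing gene (log2 3.73, adjusted p = 0.00021). In that list 8 passed the adjusted p at lower levels, against 30.8% of all genes. Of the 71 tested genes of these lists and the pathway lists below, 12 passed at higher and 28 at lower levels. Over all genes these shares were 29.5% and 30.8%. The medians of these 3 lists were -0.37, 0.14 and -0.05 on the log2 scale, against -0.03 over all genes. Genes on the opposite strand overlap exons of Cdca7l, Bhmt and Cxxc4, with the same limit on strand as above.

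Of 10 TET partners tested, 8 passed the adjusted p, 1 higher and 7 lower, against 60.2% of all genes, 3 were called, and the list median was -0.47. Idh1, whose enzyme makes 2-oxoglutarate, the cosubstrate of TET enzymes, had 464 ± 61.6 CPM in WT and 62.4 ± 7.48 CPM in Mbd3-KO (log2 -2.89, adjusted p = 8.71e-09). Cxxc4, which encodes a TET2-binding zinc finger protein, fell by 3.36 on the log2 scale (adjusted p = 0.000129), and Prdm14, a pluripotency and germline regulator, rose by 3.33 (adjusted p = 0.00133). Of 19 genes of base excision and demethylation tested, 4 were called higher and 3 lower, with a median of -0.15. The shares called in these lists stand against the 33.8% of all genes given above. Smug1, a uracil DNA glycosylase, had 378, 260 and 198 CPM in WT and 15.7, 45 and 50.1 CPM in Mbd3-KO, without overlap (log2 -2.91, adjusted p = 1.98e-05). The stress and repair gene Gadd45g fell (log2 -2.59, adjusted p = 9.59e-08). Its relative Gadd45b was called higher (1.3, adjusted p = 0.00958), and Gadd45a did not pass (-0.19, adjusted p = 0.383). The cytidine deaminase family genes Apobec2 (2.34, adjusted p = 0.000216) and Apobec3 (2.07, adjusted p = 2.46e-05) rose, and Apobec1 did not pass (-0.12, adjusted p = 0.707). Among germline genes known to be silenced by promoter methylation, 13 of 19 tested were called higher and 1 lower, with a median of 2.02. Over all genes 19.6% were called higher and 14.2% lower. Sohlh1, a germline transcription factor gene, had a log2 difference of 8.12 (adjusted p = 1.21e-10). Among WT libraries s03 had the most Taf7l, Tuba3a and Tuba3b of this list (2, 5.43 and 1.58 CPM), but not the most Sohlh1 (0.438 CPM).

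In MBD3a, MBD3delMBD and MBD2aR181C against WT, edgeR called 0 of the 71 tested genes of the 5 pathway lists. In the same lines 0 passed the adjusted p, and 2, 8 and 2 had an unadjusted p under 0.05, against 1.77%, 7.16% and 3.95% of all genes. Between Mbd3-KO and WT 8 were called higher and 6 lower. In MBD2adelGR 1 gene of base excision and demethylation was called higher and 0 genes of the other lists, against 5.16% of all genes called. In that line 2 of the 71 passed the adjusted p at higher and 3 at lower levels, against 8.55% of all genes. An unadjusted p under 0.05 was found for 13, against 26.6% of all genes. In MBD2a, 4 of 10 TET partners were called, 1 higher and 3 lower, and 8 of 19 genes of base excision and demethylation, 5 higher and 3 lower. In MBD2t, 3 of 10 and 7 of 19 genes of these lists were called. Over all genes, 30.6% were called in MBD2a and 33.4% in MBD2t.

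**Figure D5:**
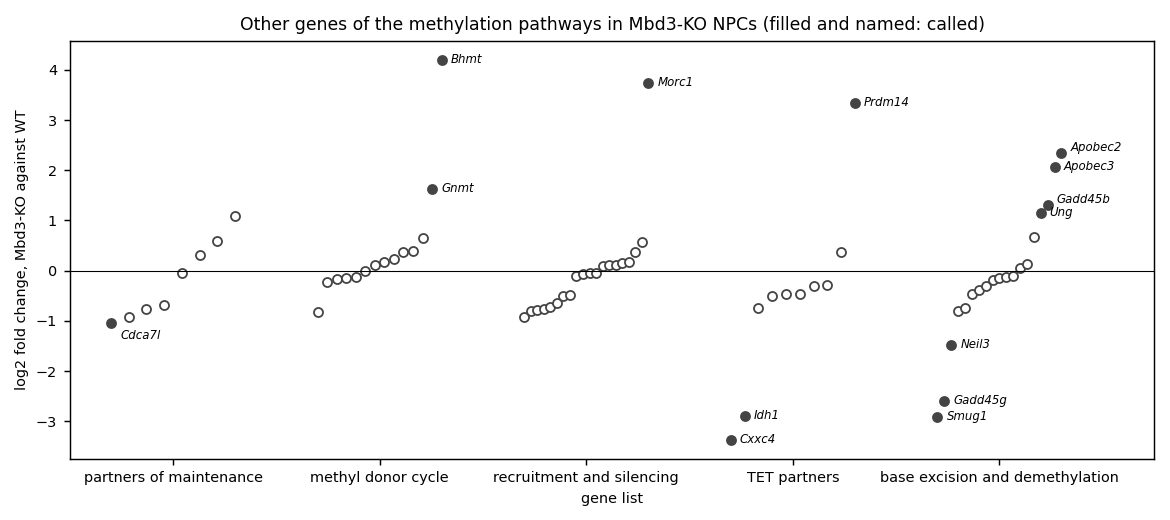
Log2 fold change of Mbd3-KO against WT for each tested gene of 5 lists, ordered by value within a list, filled and named where called. The TET partner list has the lowest median (-0.47), and Bhmt (4.20) and Morc1 (3.73) lie far above the rest of their lists.

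The genes whose levels followed those of Dnmt3b and Dnmt3l most closely over the 24 libraries were sought among 12805 genes, as the smallest root mean square difference of centred log2 levels. For Dnmt3b these were Bid, which encodes a regulator of apoptosis (difference 0.17), Gsr, which encodes glutathione reductase (0.17), and Diaph3, which encodes a formin (0.18). For Dnmt3l they were Gpa33 (0.61), Slc13a4 (0.64) and L1td1 (0.67), the last of which is known from pluripotent cells. The larger values for Dnmt3l go with its wider range, and all libraries share the division between lines described above.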

How the data were processed

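Poly(A) RNA was sequenced as single-end reads of 150 bases with a directional kit. The authors trimmed reads with Trim Galore, aligned them with STAR to NCBIM37 (mm9) with a GENCODE annotation, and the deposited values are their raw counts per gene from qCount of QuasR. The strand setting of the counting is not given in the sources used here. All 24 columns were used and 6 ChIP-seq samples were not analysed here.

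Genes were filtered with filterByExpr by line, scaled with TMM and tested in 1 fit of the 24 libraries with the quasi-likelihood test of edgeR 4.0.16 (R 4.3.3), 16 contrasts, Benjamini-Hochberg over 16582 genes. SE was taken as the size of the log2 fold change over the root of its F statistic. Genes were called at an adjusted p under 0.05 with a log2 fold change beyond 1 in either direction. The procedure was tested on simulated data. With 3 libraries per line an exact permutation test cannot give p under 0.1. Clones of 1 line are the replicates, except for MBD2t. Floors of 3 reads cover counting error only. DESeq2 1.42.0 and the other alternatives are described with the limits. Members and gene lists were chosen with earlier results of these data known. Named list genes are the called ones with the largest changes, with relatives of the Gadd45 and Apobec genes added. Pou5f1, Nanog, Col4a1 and Col4a2 were named besides.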

Additional observations from a re-analysis of the deposited data

How the results depend on the processing

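The counts of the 9 genes called were recomputed under other scalings, filters, tests and sets of libraries. The count stayed within 1.5 times that reported in 236 values and moved further in 26, which are given here singly or as ranges, and no direction reversed. The 236 include counts of 0 that stayed at 0 and counts that went from 2 to 3, so they are no measure of how stable single calls are. Scaling by library size alone gave 2 called for MBD2a against MBD2adelGR. With only the 2 lines compared in the fit, MBD2adelGR against Mbd3-KO gave 1 and MBD2a against MBD2adelGR 0. Without the fold limit, the counts were 5 for Mbd3-KO and 5 for MBD2t against WT, 5 for MBD3delMBD and 4 for MBD2aR181C against Mbd3-KO, and 3 for MBD2a against MBD2adelGR. With glmTreat, which tests against the fold limit (Dnmt3b in Mbd3-KO against WT then had an adjusted p of 0.0839), they were 1 for Mbd3-KO and 1 for MBD2a against WT, 1 each for MBD3a, MBD2adelGR and MBD2aR181C against Mbd3-KO, and 0 for MBD2a against MBD2adelGR and 0 against MBD2aR181C. Without s03 and s18 together, an alternative chosen after the data were seen, 3 were called for MBD2a against MBD2adelGR.

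When 1 library was left out in turn, the count ran from 2 to 3 for Mbd3-KO against WT, from 1 to 3 for MBD2a against WT, from 2 to 3 for MBD2t against WT, from 2 to 3 for MBD3a, 3 to 3 for MBD3delMBD, 0 to 2 for MBD2adelGR and 2 to 3 for MBD2aR181C against Mbd3-KO, from 0 to 3 for MBD2a against MBD2adelGR and from 0 to 3 against MBD2aR181C. In the other comparisons it stayed at 0. The low values came without s15 (MBD2a against WT, MBD2adelGR and MBD2aR181C), s16 or s17 (MBD2a against MBD2adelGR) and s04 (MBD2adelGR against Mbd3-KO). The legacy quasi-likelihood test, also added after the data were seen, moved no count by over 1.5 times. No paired analysis was possible because the columns carry no replicate number. Depth limits Dnmt3l in the lines where it is low, with 9 reads in its lowest library.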
